A study of Mus musculus with 9 samples.

Results

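Glycolysis splits glucose into pyruvate in the cytosol, and lactate dehydrogenase turns that pyruvate into lactate when it is not burned in mitochondria. The hypoxia-inducible factors (HIFs) are pairs of an oxygen-labile alpha subunit and a stable partner, ARNT. When oxygen is plentiful, prolyl hydroxylases mark the alpha subunit for destruction, and when oxygen is scarce the pair switches on glycolytic genes, glucose uptake and genes of vessel growth and mitochondrial turnover. Cultured neural stem cells (NSCs) are known to rely strongly on glycolysis. Med12 is a subunit of the kinase module of Mediator, a complex that passes signals from transcription factors to RNA polymerase II. The study does not name HIFs among the factors that act through Med12.

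The genes described here are 36 genes of glycolysis and the hypoxia response, chosen by symbol: 16 glycolytic enzymes, 6 regulators of glucose entry and flux, 4 HIF alpha subunits and prolyl hydroxylases, and 10 HIF targets outside glycolysis. All 62 probes that carry one of these symbols, of the 45281 probes of the Illumina MouseWG-6 array, were taken. Symbols for Hk2, Gpi1 and Eno1 were on no probe, so these 3 genes are not analysed here. Of the other 33 genes, 26 had a probe above background on at least 3 of the 9 arrays and were tested among 10757 genes of the whole array. Those 26 are 12 enzymes, 5 flux regulators, 3 HIF factors or hydroxylases and 6 HIF targets.

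The cells were mNS-5, one clonal mouse NSC line derived from embryonic stem cells and grown attached to gelatin with FGF-2 and EGF. Every culture was infected with a lentivirus, kept under puromycin from the next day, and harvested after 5.5 days. The virus expressed a non-silencing shRNA in the 3 NS control arrays and an shRNA against Med12 in the 6 MED12 KD arrays. The study's methods list a single Med12 shRNA and no rescue. Labels number the arrays in 3 sets, and every set holds 1 array of NS control and 2 of MED12 KD, the latter split below into a first and a second knockdown series. Whether the second MED12 KD array of a set is another culture or a repeat measurement is not stated in the sources used here, so p-values measure the spread between arrays, which may be technical. The methods speak of 3 independent biological replicates of each kind, whereas n = 6 below counts MED12 KD arrays. With both MED12 KD arrays of a set averaged, so that 3 stood against 3, 344 genes were called higher and 164 lower, rather than 706 and 410.

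Signals were used as the authors deposited them, background-subtracted and quantile-normalized on a linear scale, where values below 16.9 could not be told from background. Folds and tests are on the log2 scale after values below 16 were set to 16, which understates the change of dim genes. Precision is limited by how few arrays there are. In bulk RNA, fewer cells that express a gene and less of its RNA per cell cannot be told apart. Med12 itself fell from 326 ± 51.2 (SD, n = 3) to 137 ± 26.6 (SD, n = 6), by 1.26 on the log2 scale (SE 0.18, adjusted p = 0.00276 by limma; exact permutation of the arrays over 84 splits, two-sided, p = 0.0119, the smallest possible). Of 11 NSC markers with a probe, 8 were above background on all 9 arrays, Nes and Sox2 among them. Pax6 was above it on 2 arrays and Msi1 on 1. Of the 9 NSC markers tested, 1 was called lower, Hes1 (11.1%, against 10.4% of all genes). Hes1 gave 1113, 769 and 1028 in the controls and 577 to 695 in MED12 KD arrays (log2 -0.62). The summed signal of 7 neuron markers, mostly Map2, was 5235 to 6204 in NS control and 6347 to 8108 in MED12 KD arrays. Neither of the 2 tested passed. The summed signal of 4 astrocyte markers was 168 to 262 in NS control and 306 to 793 in MED12 KD arrays. Most of it came from S100b (90.2 to 220 and 220 to 603). Aqp4 overlapped between groups, and its second probe gave a log2 fold change of -0.45. Aldh1l1 was past the test (adjusted p = 0.0400 by limma) and the other 3 were not. The summed signal of 3 proliferation markers was 3180 to 4475 and 3202 to 3808, and none of those passed. The part of any of these markers in the results below was not tested.

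Med12 knockdown left most of these genes without a call. At an adjusted p of 0.05 or less by limma, 1 of the 26 rose, the glucose transporter Slc2a1, and 1 fell, the HIF target Ankrd37. That is 7.69% of the 26, against 10.4% of all genes tested (6.56% rose and 3.81% fell). A gene silent in the controls entered the test with 3 of the 6 MED12 KD arrays above background. One silent in MED12 KD needed all 3 controls, so rises and falls did not enter on equal terms. Arrays of the 2 groups did not overlap for 4 of the 26: Slc2a1, Pfkm and Pdk2 lay higher on every MED12 KD array and Ankrd37 lower, against 18.6% of all genes (10.2% higher and 8.39% lower). Pdk2 entered the test only through its MED12 KD arrays, so the filter set its direction. Neither share lay above that of all genes. The median log2 fold change was -0.04 over the 26 and -0.0022 over all genes. By group the medians were -0.11 for the 12 enzymes, 0.23 for the 5 flux regulators (of which Pdk2 and Pfkfb3 entered only through MED12 KD arrays), -0.66 for the 3 HIF factors and hydroxylases, and -0.49 for the 6 HIF targets. Among the HIF targets, Car12 entered mainly through MED12 KD arrays. P4ha2, above background on control arrays only, did not enter, so the filter also shaped this median.

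**Figure D1:**
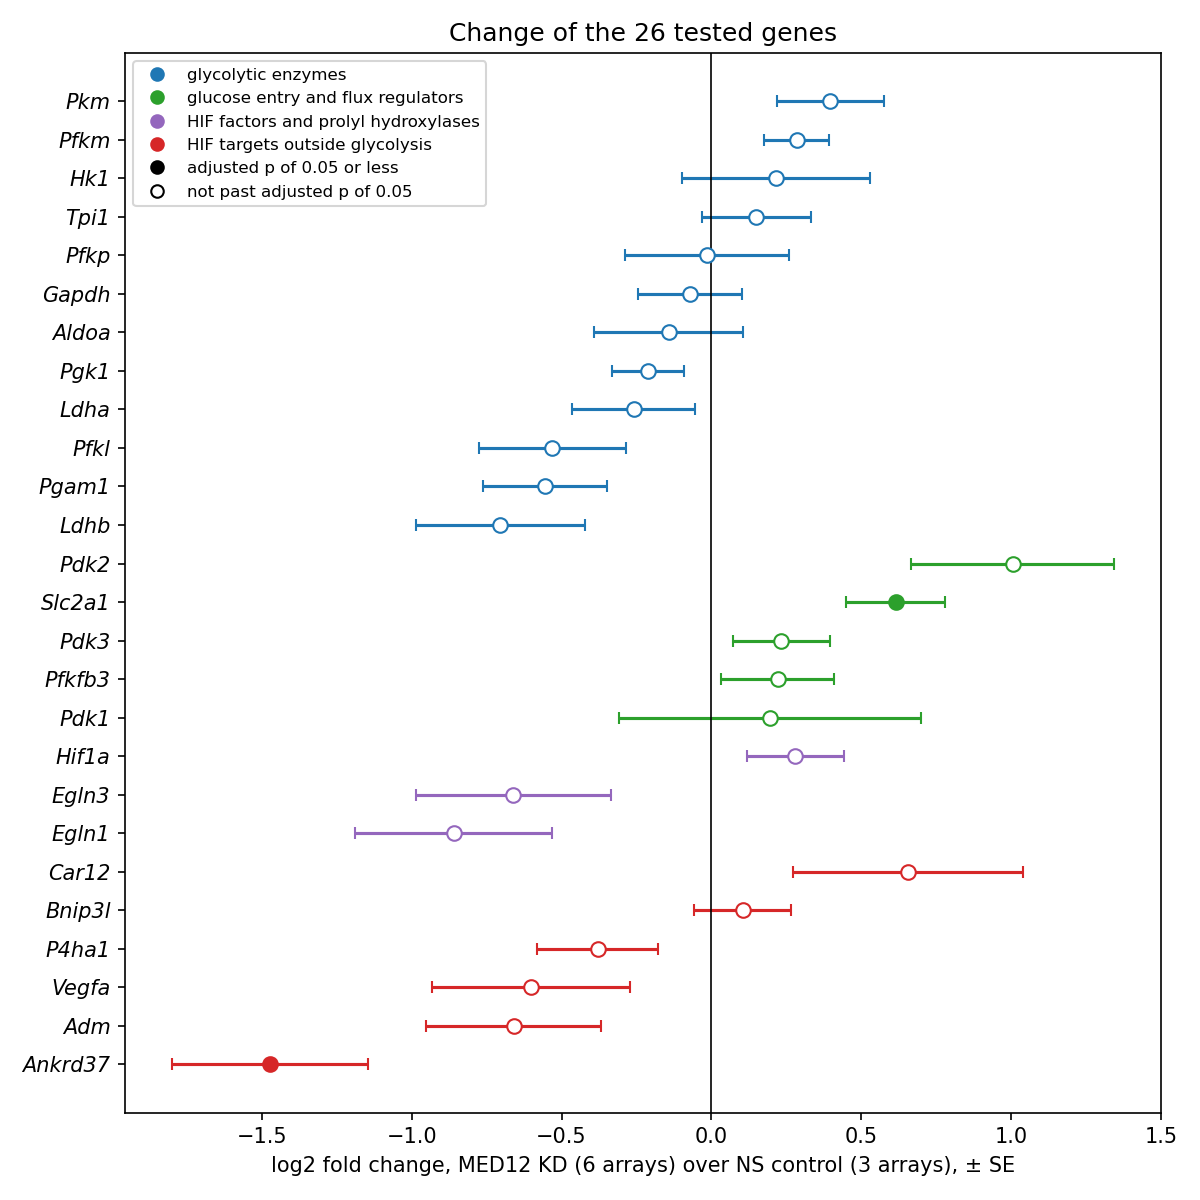
Log2 fold change of each of the 26 tested genes (x axis, MED12 KD over NS control, points with bars of 1 SE) by gene (y axis), coloured by group. Slc2a1 at 0.61 and Ankrd37 at -1.47 are filled because they passed an adjusted p of 0.05; the flux regulators Pdk2 and Pfkfb3 lie above 0 because only MED12 KD arrays brought them into the test, and 8 of the 12 enzymes and 4 of the 6 HIF targets lie below it.

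Ankrd37, which encodes an ankyrin repeat protein and is a direct HIF-1 target, showed the largest difference of the 26. Its signal was 69.8, 129 and 240 on NS control replicates 1, 2 and 3. The first knockdown series gave 36.1, 42.3 and 49.4, the second 48.9, 43.2 and 64.9. The groups did not overlap, although the highest MED12 KD array came close to the lowest control, and the controls were themselves spread 3.44-fold. Ankrd37 fell by 1.47 on the log2 scale (SE 0.33, adjusted p = 0.0201 by limma), 2.77-fold. Set by set the difference was -0.73, -1.60 and -2.09. The call was lost without NS control replicate 2 (adjusted p = 0.0685) or replicate 3 (-1.03, adjusted p = 0.0653), and held without replicate 1 (-1.92, adjusted p = 0.00559) and without any 1 MED12 KD array. It was also lost with either series alone and with the MED12 KD arrays of a set averaged (adjusted p = 0.0927).

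Slc2a1 encodes GLUT1, a carrier that brings glucose across the plasma membrane. NS control replicates 1, 2 and 3 gave 1865, 2866 and 3017. In the first knockdown series it was 3877, 3554 and 4076, and in the second 4491, 3616 and 3673. All MED12 KD arrays were above all controls, and NS control replicate 1 stood below the other 2. On the log2 scale Slc2a1 rose by 0.61 (SE 0.17, adjusted p = 0.0430 by limma), which is 1.53-fold. That call lies close to the threshold and was lost when any 1 of the 9 arrays was left out, with adjusted p from 0.0530 without NS control replicate 3 to 0.128 without NS control replicate 1, where the difference was 0.40. It was lost as well with the MED12 KD arrays of a set averaged (adjusted p = 0.141). Set by set the difference was 1.16, 0.32 and 0.36.

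Ankrd37 and Slc2a1 are the 2 genes that passed, so their promoters are shown. Both sequences are RefSeq windows of build GRCm38.p6, from 250 bases before to 50 bases after the gene's start, written 5′ to 3′ on the gene's strand. Capitals mark the core letters to which HIF pairs bind, ACGTG or GCGTG, on either strand, so that CACGT and CACGC are the same letters read on the other strand.
Ankrd37, chr8:45999801-46000100, minus strand: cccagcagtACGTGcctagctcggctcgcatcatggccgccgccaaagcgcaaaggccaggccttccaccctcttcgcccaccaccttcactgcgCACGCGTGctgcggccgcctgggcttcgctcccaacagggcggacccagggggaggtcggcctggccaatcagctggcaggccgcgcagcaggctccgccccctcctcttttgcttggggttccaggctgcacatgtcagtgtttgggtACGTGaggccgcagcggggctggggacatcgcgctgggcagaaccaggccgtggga
Slc2a1, chr4:119108495-119108794, plus strand: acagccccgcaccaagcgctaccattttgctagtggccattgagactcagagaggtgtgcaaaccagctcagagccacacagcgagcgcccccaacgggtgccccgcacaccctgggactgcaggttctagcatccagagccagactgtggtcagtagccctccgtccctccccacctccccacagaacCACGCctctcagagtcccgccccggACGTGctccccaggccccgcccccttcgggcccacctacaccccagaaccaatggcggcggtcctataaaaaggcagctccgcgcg
The Ankrd37 window holds 4 matches, of which CACGC and GCGTG overlap in one run, and the Slc2a1 window holds 2. These letters are common, with at least 1 match in 43.8% of all 32851 windows. Of 47 windows of the 33 members that have one, 76.6% held a match, and for 29 of the 33 genes at least 1 window did. Matches were not limited to genes that passed: Ldha, which did not pass, had 7 in one of its windows, and Bnip3, at background throughout, had 5, while Tpi1 and Car12 had 0. A match is a description of the letters and not a site.

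No glycolytic enzyme passed the test. Of the 12 tested, 3 had an unadjusted p under 0.05 in limma (Pfkm, Pgam1 and Ldhb), against 26.8% of all genes, and 4 had a positive and 8 a negative log2 fold change. Leaving out NS control replicate 3 turned their median from -0.11 to 0.07. At the head of the pathway Hk1, the hexokinase that traps glucose as its phosphate, was 80.6 ± 21.9 (SD, n = 3) in NS control and 95.7 ± 28.5 (SD, n = 6) in MED12 KD arrays (log2 0.22, adjusted p = 0.702), and its second probe went the other way (-0.14).

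Phosphofructokinase, the committing step, has 3 isoform genes, which gave log2 fold changes of 0.28, -0.53 and -0.01. Pfkm, the muscle-type subunit, gave 3127, 3204 and 3002 in the controls against 3982, 3586 and 3793 in the first and 4173, 3755 and 3473 in the second series. Every MED12 KD array was above every control, and the control SD was 3.27% of the mean. With an SE of 0.11 its log2 fold change of 0.28 did not pass (adjusted p = 0.126 by limma), and its other probes gave 0.44 and 0.21. Pfkl, the liver-type subunit, gave 2234, 4042 and 5159 in the controls, and 2072, 2429, 3282, 2210, 2571 and 2539 in MED12 KD arrays. Control replicate 1 lay among the MED12 KD arrays and the other 2 controls above all of them, a log2 fold change of -0.53 (adjusted p = 0.196) that reached -0.87 (adjusted p = 0.0304) without replicate 1. Pfkp, the platelet-type subunit, was near background, at -5.8 to 35.3.

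None of the enzymes further down passed either. Aldoa, aldolase A, was 4210 ± 1510 against 3690 ± 659, Tpi1, triosephosphate isomerase, 16200 ± 4750 against 17500 ± 1510, and Pgk1, phosphoglycerate kinase, 7990 ± 777 against 6890 ± 557 (SD, n = 3 and 6, NS control first). Their adjusted p values were 0.754, 0.642 and 0.298. The other probes of Tpi1 gave log2 fold changes of 0.01 and -0.40 beside 0.15, so its direction rests on the probe. Pgam1, phosphoglycerate mutase, gave 880, 1106 and 1645 in the controls against 639, 893 and 941 in the first and 676, 887 and 795 in the second series. Its groups overlapped only through control replicate 1, and its log2 fold change was -0.55 (SE 0.21, adjusted p = 0.115 by limma), with -0.83 at its second probe. Pgam1 passed only in an alternative limma fit with the set number as a block (adjusted p = 0.0305). Whether the set numbers mark pairs is not established.

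Pyruvate kinase, Pkm, had the largest positive value among the enzymes, with 4104, 5691 and 6003 in the controls and 5483 to 8565 (median 6814) in MED12 KD arrays. The groups overlapped and the log2 fold change of 0.40 did not pass (SE 0.18, adjusted p = 0.188). Ldha, the lactate dehydrogenase subunit that favours lactate formation, was 14000 ± 3000 against 11700 ± 2280 (log2 -0.26, adjusted p = 0.452). Ldhb, the subunit that favours the reverse step, was close to background, at 47.4, 20.1 and 33.2 in the controls and 12.6 to 27.5 in MED12 KD arrays, with 3 of 6 of the latter above it. Its log2 fold change of -0.70 was the largest of the enzymes in size and did not pass (SE 0.28, adjusted p = 0.138). The neuronal enolase Eno2 was at background on all 9 arrays.

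Gapdh is both a glycolytic enzyme and, with beta-actin, the normaliser of the study's RT-qPCR, so its stability is of use beyond the pathway. The RT-qPCR primers given here carry the name Gapdh in the primer list used, and the labels below only repeat that name. Their bases were not tested against the transcript of Gapdh or of the other normaliser, beta-actin. They may therefore match a gene other than Gapdh.
Gapdh forward: gatcattgctcctcctgagc
Gapdh reverse: gaaagggtgtaaaacgcagc
On the array Gapdh gave 10368, 11667 and 15769 in the controls and 8775, 12321, 12349, 12504, 12161 and 13245 in MED12 KD arrays. The groups overlapped, with the highest value in NS control replicate 3 and the lowest in array 1 of the first knockdown series. Its log2 fold change was -0.07 (SE 0.17, adjusted p = 0.828 by limma), and its sign turned without either of those arrays (0.10 and 0.01). Actb was 24700 ± 2390 (SD, n = 3) against 27200 ± 5470 (SD, n = 6), which did not pass (log2 0.11, adjusted p = 0.769). Its direction rests on the probe, since its other tested probes gave -0.09, -0.10, 0.02 and -0.59. Of 8 common RT-qPCR reference genes tested, Gapdh and Actb included, 1 passed (12.5%, against 10.4% of all genes): Rplp0, a ribosomal stalk protein, fell from 2550 ± 413 to 1090 ± 46.8, by 1.21 in log2 (adjusted p = 0.000588).

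Among the regulators of flux, Pdk1 to Pdk4 are kinases that shut pyruvate dehydrogenase and so keep pyruvate out of mitochondria. Pdk2 was at background on all 3 controls (13.7, -9.6 and 13.6) and above it on all 6 MED12 KD arrays, at 18.3, 57.4, 22.0, 51.2, 33.2 and 27.9. The groups did not overlap, and Pdk2 was at least 1.90-fold higher in MED12 KD cells with the controls set to the background limit, but the fit did not pass (adjusted p = 0.0855). With no control above background, only a higher value in MED12 KD could enter the test, so its direction was fixed by the filter. The absence of overlap was not, since 3 arrays above background were enough to enter. Pdk1, the classical HIF-induced member, gave 55.8, 236 and 374 in the controls and 258, 121, 180, 230, 253 and 167 in MED12 KD arrays. The lowest and the highest of the 9 values were both controls, and the log2 fold change of 0.19 had an SE of 0.50 (adjusted p = 0.842). Without control replicate 1 it was -0.61. Pdk3 was 336 ± 28.1 against 399 ± 68.4 (adjusted p = 0.389), Pdk4 was at background throughout, and Pfkfb3, the kinase that makes the activator of phosphofructokinase, was above background on 3 MED12 KD arrays only, at 17.9 to 28.3, which again fixed its direction.

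**Figure D2:**
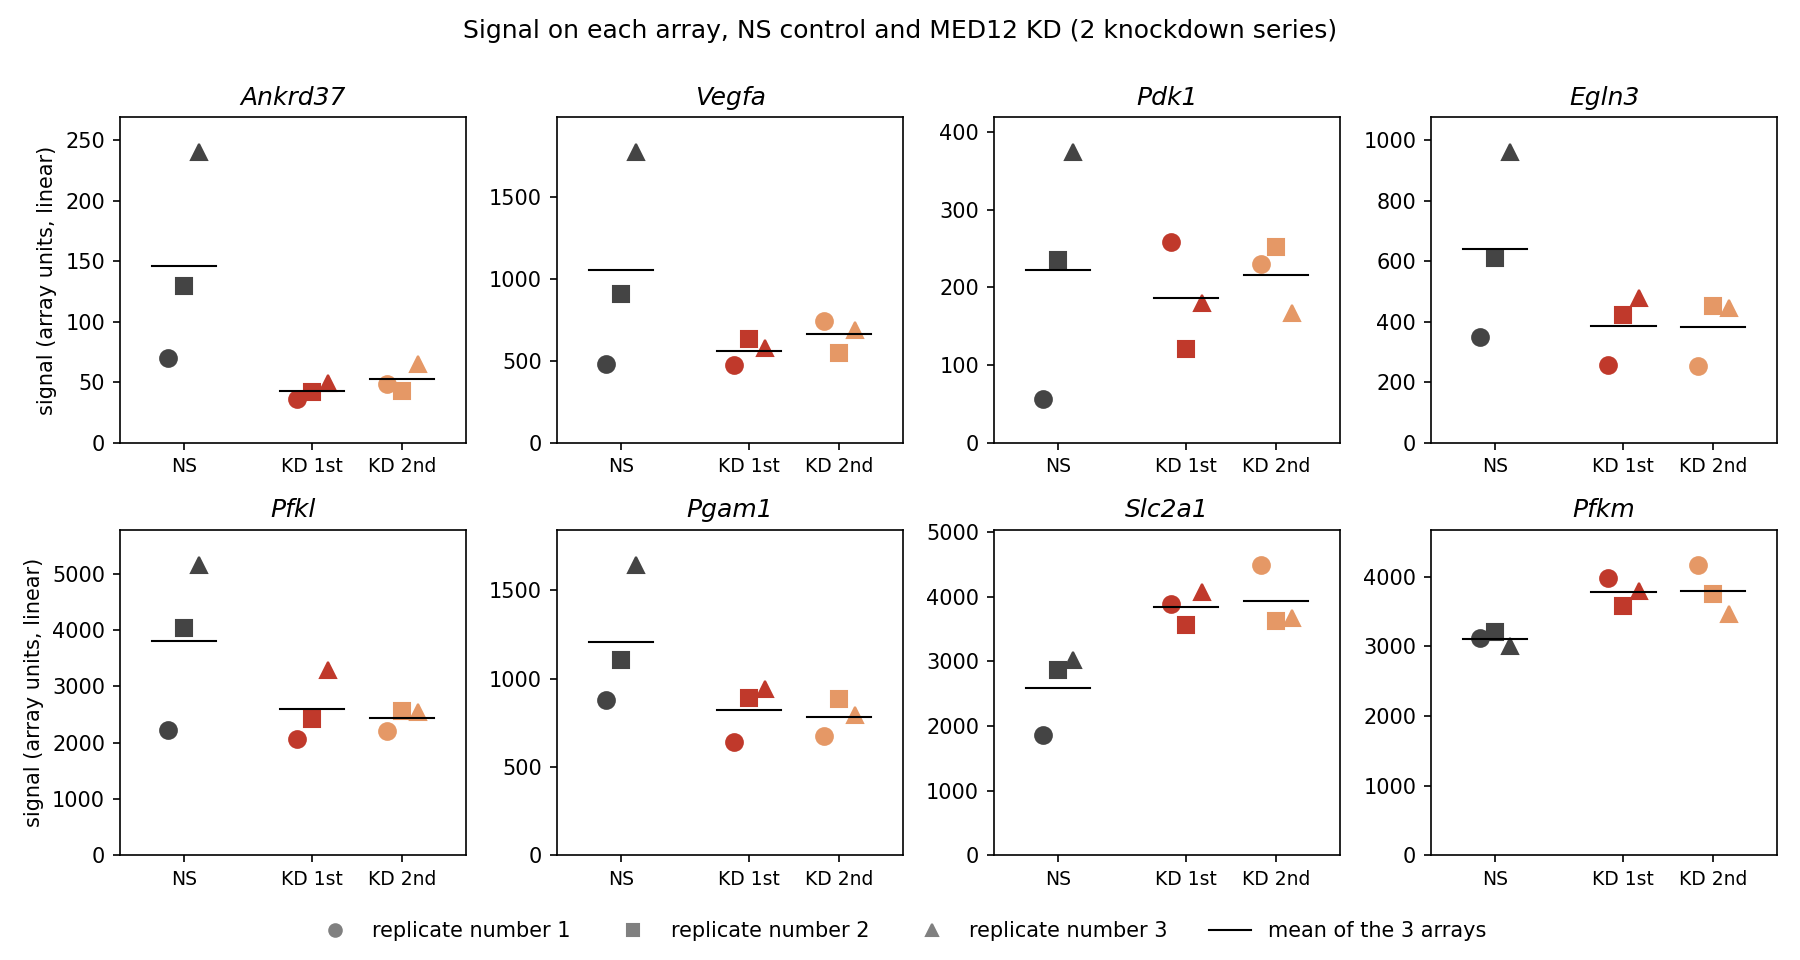
Signal on each array (y axes, linear array units from 0) for 8 of the genes, by group on the x axes: NS control, first and second knockdown series, with a symbol for the replicate number and a line at the mean of each 3 arrays. Ankrd37, Slc2a1 and Pfkm do not overlap between groups, while NS control replicate 3 is highest of all 9 arrays for Ankrd37, Vegfa, Pdk1, Egln3, Pfkl and Pgam1.

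Hif1a, the oxygen-labile subunit of HIF-1, gave 416, 440 and 273 in the controls and 397 to 492 (median 448) in MED12 KD arrays. Control replicate 3 lay below all other arrays and the other 2 controls among the MED12 KD arrays, and the log2 fold change was 0.28 (adjusted p = 0.297 by limma). Epas1, the alpha subunit of HIF-2, exceeded background on 1 array, at 26.9. The prolyl hydroxylases Egln1 (PHD2) and Egln3 (PHD3) mark the alpha subunits and are themselves HIF targets. Egln1 gave 78.6, 151 and 158 in the controls and 59.9, 75.0, 39.0, 59.4, 82.6 and 115 in MED12 KD arrays. Control replicate 1 lay among the MED12 KD arrays, and the log2 fold change was -0.86 (SE 0.33, adjusted p = 0.123), with -0.73 and -0.89 at its other 2 probes.

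Egln3 gave 348, 612 and 961 in the controls against 259, 424 and 480 in the first and 254, 451 and 446 in the second series. Control replicate 1 lay within the MED12 KD range and the other 2 controls above it. Its log2 fold change was -0.66 (SE 0.33, adjusted p = 0.225 by limma), and set by set it was -0.44, -0.48 and -1.06. Within each number the MED12 KD arrays thus averaged below the control. In an alternative limma fit with the set number as a block, Egln3 passed (adjusted p = 0.0157). Whether the set numbers mark pairs is not established.

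Of the HIF targets outside glycolysis, Vegfa, the vascular endothelial growth factor, gave 481, 905 and 1771 in the controls, a 3.68-fold spread. Its MED12 KD arrays lay between 474 and 745, at 474, 633, 575, 745, 550 and 689. Control replicate 1 sat at the low end of the knockdown range and the other 2 controls above all of it. The log2 fold change was -0.60 (SE 0.33, adjusted p = 0.277 by limma), it ran from 0.31 in set 1 to -1.49 in set 3, and it was -1.07 (adjusted p = 0.0425) without replicate 1 and -0.13 without replicate 3. The second Vegfa probe showed the same control order, with 46.8, 138 and 352.

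Adm, the vasodilating peptide adrenomedullin, gave 89.2, 116 and 183 in the controls and 56.5, 84.6, 63.1, 90.4, 64.0 and 130 in MED12 KD arrays, which overlapped (log2 -0.66, adjusted p = 0.178). P4ha1, a collagen prolyl hydroxylase subunit, was 137 ± 41.6 against 103 ± 14.7 (log2 -0.38, adjusted p = 0.263), and its second probe went the other way (0.43). Its paralog P4ha2 did not enter the test because only 2 arrays were above background, NS control replicates 2 and 3 at 36.6 and 60.4, while replicate 1 gave 10.7 and no MED12 KD array exceeded 10.8. Bnip3l, a receptor that marks mitochondria for removal, was 2250 ± 372 against 2420 ± 382 (adjusted p = 0.723). Its relative Bnip3 and the carbonic anhydrase Car9 were at background on every array. Ndrg1, a stress-responsive gene, exceeded it only on arrays 2 and 3 of the second knockdown series, at 20.9 and 42.8. Car12, another carbonic anhydrase, was near background, with 1 of 3 controls and 5 of 6 MED12 KD arrays above it and up to 60.9 (log2 0.66, adjusted p = 0.304).

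The NS control arrays differed among themselves in many of these genes. Control replicate 3 exceeded replicate 1 at least 2-fold for 8 of the 26 genes, Pdk1, Vegfa, Ankrd37, Egln3, Pfkl, Aldoa, Adm and Egln1, against 3.36% of all genes tested, and in no case was replicate 1 at least 2-fold over replicate 3 (3.24% of all genes). The ratio was 6.71 for Pdk1, 3.68 for Vegfa, 3.44 for Ankrd37 and 2.76 for Egln3. Replicate 1 was lowest and replicate 3 highest of the 3 controls for 16 of the 26 genes, against 16.1% of all genes. These counts describe single arrays, were made after the values had been seen, and carry no test.

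**Figure D3:**
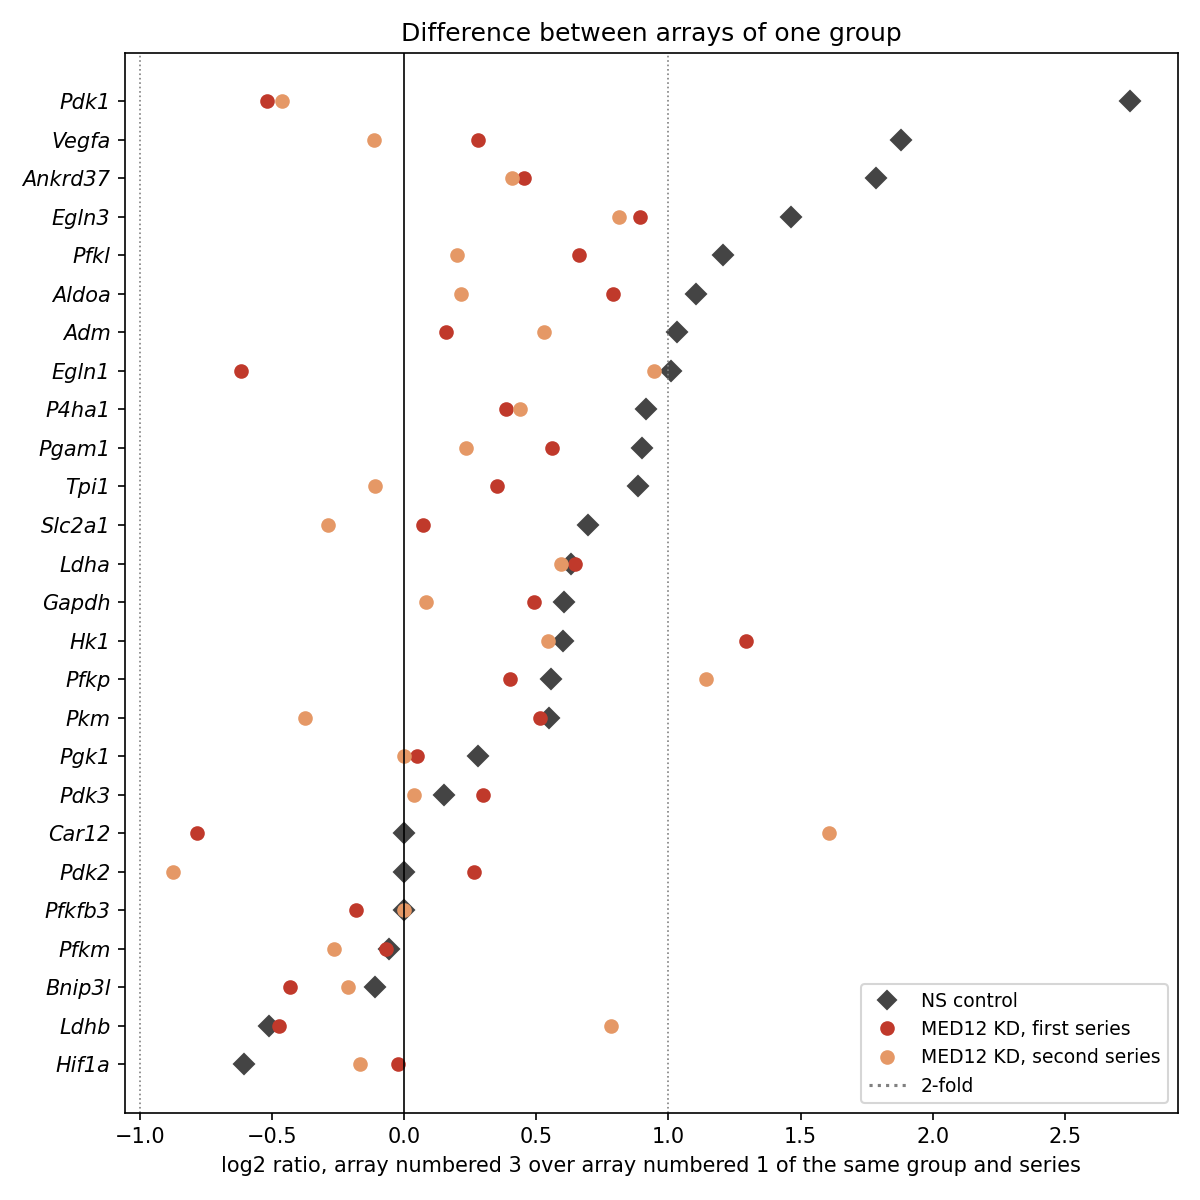
Log2 ratio of the array numbered 3 over the array numbered 1 (x axis) within NS control, the first and the second knockdown series, for each of the 26 genes (y axis), with dotted lines at 2-fold. The NS control ratio reaches 2.75 for Pdk1 and 1.88 for Vegfa, where both knockdown series stay between -0.52 and 0.28.

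In MED12 KD cells the array numbered 3 was at least 2-fold over the array numbered 1 for 1 of the 26 genes in the first series (Hk1, 3.04% of all genes) and for 2 in the second (Pfkp and Car12, both near background, 3.03% of all genes). The median log2 difference over the 26 was 0.62 in NS control, 0.29 in the first series and 0.14 in the second, with medians over all genes of 0.00, 0.01 and -0.0042. The groups were not tested against each other in this, and single genes went either way. For 13 of the 26 genes the 3 controls spanned a wider log2 range than the 6 MED12 KD arrays, against 25.7% of all genes.

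The difference between groups moved with the control array it was taken against. The median log2 difference of the 6 HIF targets was 0.07 in set 1, -0.61 in set 2 and -0.76 in set 3, and that of the 12 enzymes was 0.01, -0.17 and -0.28. Over all arrays the HIF target median of -0.49 became -0.77 without NS control replicate 1 and -0.16 without replicate 3. Without replicate 1, 3 of the 26 genes passed, all lower, Ankrd37, Pfkl and Vegfa, against 6.75% of all genes, and without replicate 2 or 3 none of the 26 did (5.19% and 5.04% of all genes).

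**Figure D4:**
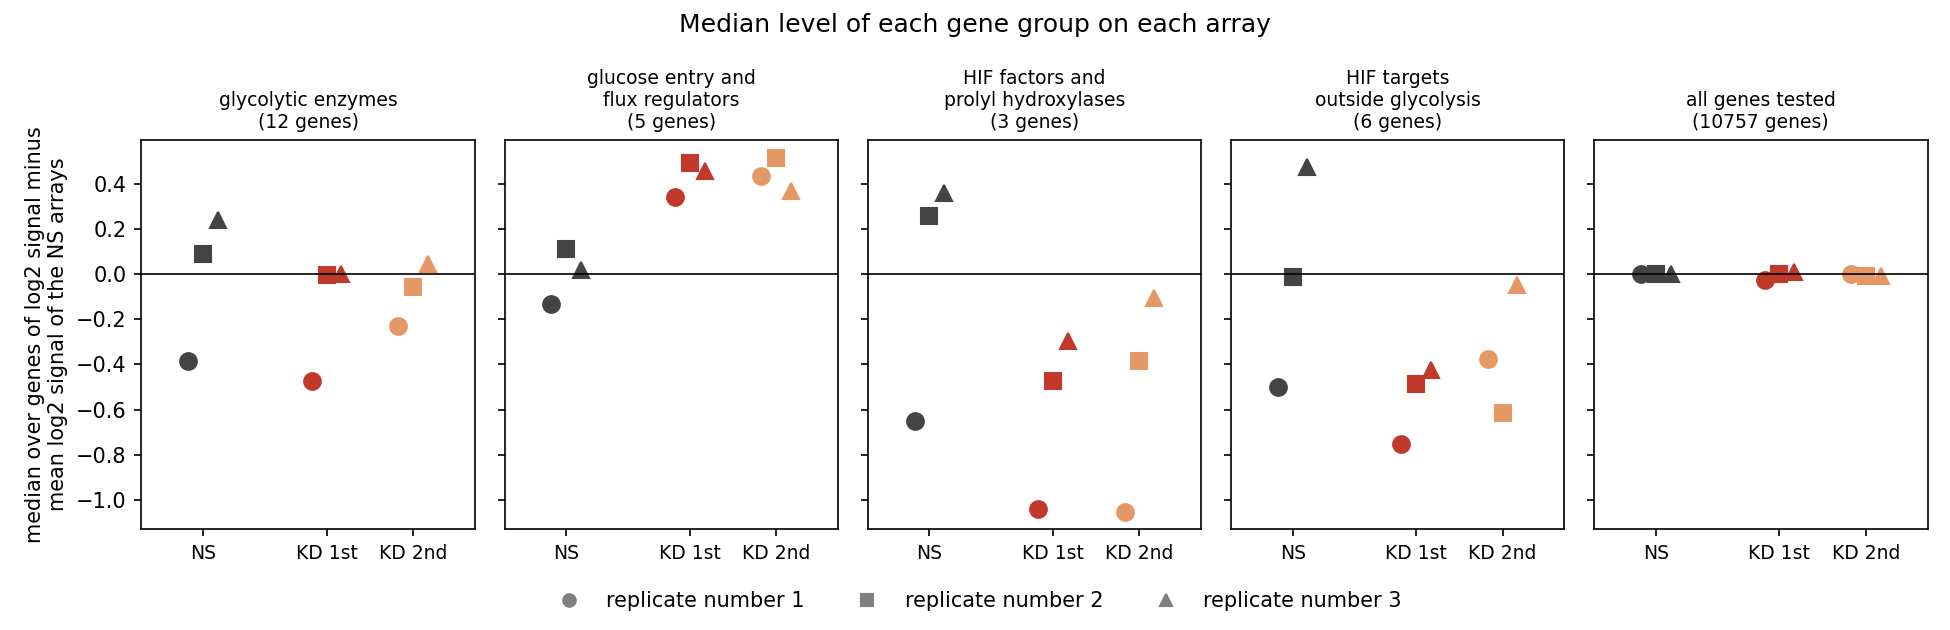
Median, over the genes of each group, of the log2 signal on an array minus the mean log2 signal of the 3 NS control arrays (y axis), for each array by group and knockdown series (x axes). HIF targets range from -0.50 to 0.48 among the controls and from -0.76 to -0.05 among MED12 KD arrays. All genes stay at most 0.02 from 0. The 5 flux regulators lie at 0.34 to 0.52 on MED12 KD arrays. Of these, Pdk2 and Pfkfb3 entered the test only through MED12 KD arrays, so the filter set their part in this level.

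No difference was called between the second and the first knockdown series. In a limma fit of 3 groups, 0 of the 26 differed at an adjusted p of 0.05 (0.0% of all genes), and 1 had an unadjusted p under 0.05.

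Other genes of the pathway, from wider lists, were read in the same way. Of 18 other genes of glycolysis and lactate handling tested, 1 rose and 1 fell, 11.1% against 10.4% of all genes. Aldoc, the brain-type aldolase, gave 14123, 10750 and 11183 in the controls and 14741 to 24741 (median 18234) in MED12 KD arrays, which did not overlap. Aldoc rose by 0.65 in log2 (adjusted p = 0.0419 by limma), and its second probe gave 1.52. Aldoc is also widely used as an astrocyte gene, and Aldoa did not pass. Pgam5 fell by 0.57 (adjusted p = 0.0230); in spite of its name it is a mitochondrial protein phosphatase. The list's median was 0.15.

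Entry of pyruvate into mitochondria showed 1 fall among 8 genes tested, 12.5% against 10.4% of all genes. Pdha1, the catalytic alpha subunit of pyruvate dehydrogenase, gave 5349, 5320 and 4599 in the controls against 3471, 3095, 3952, 2879, 3488 and 2894 in MED12 KD arrays. No arrays overlapped, and it fell by 0.63 on the log2 scale (SE 0.14, adjusted p = 0.0183 by limma). In the pentose phosphate pathway, which branches off glycolysis to make ribose and NADPH, 1 of 6 passed (16.7%, against 10.4% of all genes): Rpia, ribose 5-phosphate isomerase, fell by 0.76 (adjusted p = 0.0105), from 212 ± 16.6 to 126 ± 18.

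Of 15 genes of oxygen sensing and HIF partners, 1 fell and none rose, 6.67% against 10.4% of all genes. Hif1an, the asparagine hydroxylase FIH that blocks binding of the coactivator p300 to HIF alpha, gave 236, 252 and 260 in the controls and 147 to 193 (median 165) in MED12 KD arrays. The groups were apart on every array, and it fell by 0.58 (SE 0.12, adjusted p = 0.0174 by limma). The partner subunit Arnt was 705 ± 53.6 against 938 ± 99.8 (log2 0.41, adjusted p = 0.0715), and Vhl, the ligase subunit that removes hydroxylated alpha subunits, 572 ± 123 against 623 ± 127 (adjusted p = 0.731). Neither passed, and the direction of Arnt rests on the probe, since its other probes gave -0.32, -0.29, -0.54 and 0.23.

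The wider list of HIF targets held 29 tested genes, of which 5 rose and 4 fell, with a median log2 fold change of -0.07. That is 31.0% of the list against 10.4% of all genes, in both directions. The list was chosen with earlier results of these data known, so its share carries no test. Those that rose were the chemokine receptor Cxcr4 (by 2.01), the nuclear receptor Rora (1.48), the iron carrier transferrin Trf (1.36), the haem oxygenase Hmox1 (1.08) and the p300-binding Cited2 (0.73), with adjusted p of 0.0180, 0.0386, 0.00266, 0.0362 and 0.0472. Several of these genes answer to other signals too. Hmox1 is a target of NRF2 and Rora of the circadian clock, and Cited2 competes with HIF alpha for p300. The other probes of Cited2 gave 0.04 and 0.50, and with the mean of its probes it did not pass (0.42, adjusted p = 0.147).

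Those that fell were the repressor Bhlhe40 (by 0.93), the nuclear lamin-binding Narf (0.76), the hydroxylase Jmjd6 (0.68) and the corepressor subunit Sap30 (0.57). Their adjusted p values were 0.0279, 0.0274, 0.0125 and 0.0246. Among the list's other genes, Fam162a, a mitochondrial HIF-1 target, showed the control order of Vegfa, with 2694, 3411 and 5714 in NS control replicates 1 to 3 and 2114 to 3217 (median 2814) in MED12 KD arrays (adjusted p = 0.199). Control replicate 3 was at least 2-fold over replicate 1 for 2 of the 29 genes, for 4 of the 18 genes of glycolysis and lactate handling (the neuronal glucose carrier Slc2a3, the lactate exporter Slc16a3, Hkdc1 and Pgm1), for 1 of the 15 genes of oxygen sensing (Hif3a), and for none of the 8 and 6 genes of pyruvate entry and the pentose phosphate pathway, beside 3.36% of all genes. Replicate 1 was at least 2-fold over replicate 3 for 1 gene each of HIF targets (Cxcr4), glycolysis and lactate handling (Eno3) and pyruvate entry (Pdp1), beside 3.24% of all genes.

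Of the 15 calls in the wider lists and the reference genes, 3 held without any 1 array: Rpia, Trf and Rplp0. Jmjd6 was lost without NS control replicate 3 (adjusted p = 0.0572), Pdha1 and Narf without replicate 1 or 2 (up to 0.0706 and 0.0986), Hif1an and Cxcr4 without replicate 2 or 3 (up to 0.0707 and 0.0740), Sap30 without replicate 1 or 3 (up to 0.0939) and Pgam5 without any 1 of the controls (up to 0.0795). Bhlhe40 was lost without NS control replicate 1 or 3 or array 2 or 3 of the second knockdown series (up to 0.102). Aldoc, Hmox1 and Rora were lost without each of 7 of the 9 arrays (up to 0.140, 0.130 and 0.124) and Cited2 without each of the 9 (up to 0.148). No direction turned in any of these.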

How the data were processed

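Total RNA of mNS-5 cells was hybridised to 9 Illumina MouseWG-6 arrays. The authors subtracted background and quantile normalized in GenomeStudio (version not given in the sources used here), and these deposited intensity values were used. A table of signals before normalization was not used, because its 18 value columns match no sample. Values below 0, 33.4% to 33.5% per array, were mirrored, giving 10.3 as the SD of background and 16.9 as its limit (one-sided p of 0.05). Probes above it on at least 3 arrays were kept (20026). Symbols came from the platform annotation (34885 probes with 1 symbol, 18 with several, 10378 unnamed here; 34807 matched a GRCm38.p6 gene table by Entrez identifier, with 0 changed). Each gene was read from its probe of highest mean, and 4167 of 10757 genes had other kept probes. Values below 16 were set to 16 before log2.

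MED12 KD and NS control arrays were compared by limma 3.58.1 (lmFit, eBayes; R 4.3.3), two-sided, Benjamini-Hochberg adjusted over all genes tested. A gene called here passed an adjusted p of 0.05, with no fold limit. Where all arrays of a group were at background, its fold is a bound, with the group set to the limit. The fit was tested on simulated data. Named genes were all members, in full those that passed, did not overlap or differed most in their group, and up to 6 of each wider list that passed. Other members were given array by array for their control spread, after their values were seen, as were Hmox1, Rora and Cited2, which complete the count of HIF targets that passed, Actb, Arnt, Vhl, Fam162a and the genes named for their control spread. Members and lists were chosen with earlier results of these data known. Alternatives covered the transformation, the filter, the probes, the set number, the 2 series, variance and array weights, centring and each array left out. Leaving out a whole set was added after seeing the data. Promoter windows and motif counts came from RefSeq, primers from the study's supplement. Figures were drawn with matplotlib 3.10.9 (Python 3.11.15).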

Additional observations from a re-analysis of the deposited data

Results flagged for a closer look

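In 4 of the 26 genes tested, array 1 of the first knockdown series lay below the other 5 MED12 KD arrays by more than a test for a single stray value allows at 95%. The gap was 0.636 of the group's whole log2 range for Hk1 (44.2 against 85.4 to 124.5), 0.629 for Aldoa (2450 against 3459 to 4238), 0.629 for Tpi1 (14741 against 17260 to 18944) and 0.793 for Gapdh (8775 against 12161 to 13245). Chance flags about 1 in 20 groups. None of these 4 genes passed the comparison of groups with or without that array.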

How the results depend on the processing

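The sample columns of the signals before normalization match no label, so normalizing them anew was not run. Of the 26 genes, 18 did not turn in direction under any alternative run (Pfkfb3 reached 0.0 with the second series alone) and 8 turned in at least 1, without passing the threshold. Without 1 array the log2 fold change ran from -0.45 to 0.10 for Aldoa, -0.036 to 0.20 for Bnip3l, -0.20 to 0.10 for Gapdh, -0.021 to 0.42 for Hk1, -0.61 to 0.76 for Pdk1, -0.24 to 0.16 for Pfkp and -0.094 to 0.35 for Tpi1. Without the arrays of a whole set it was 0.0076 for Aldoa (set 3), 0.042 for Gapdh (set 3), -0.77 for Pdk1 and -0.065 for Tpi1 (set 1), and 0.11 for Pfkp (set 2). With the second series alone it was 0.026 for Gapdh and 0.038 for Pfkp. With the mean of a gene's probes it was 0.025 for P4ha1 and -0.080 for Tpi1. Pfkp was 0.11 with values below 1 set to 1 and 0.035 with array weights.

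Slc2a1 lost its call in 19 of 25 alternatives (adjusted p 0.0118 to 0.199 over all 25) and Ankrd37 in 8 (0.00559 to 0.186). The count of the 26 that rose was 0 with values below 1 set to 1, with every probe tested, with the first series alone, with array weights and without any set, 2 with 50 added (Pdk2 and Slc2a1) and 2 with an intensity trend (Pfkm and Slc2a1), and 0 to 1 without 1 array. Where it stayed at 1, the gene was Slc2a1 with a stricter filter, the mean of a gene's probes, the set number as a block or median centring. It was Pfkm without a filter. It was Pdk2 with the knockdown arrays of a set averaged, the second series alone or array 1 of the first series left out. The count that fell was 0 without a filter, with the knockdown arrays of a set averaged, with either series alone and without set 2 or 3, and 0 to 3 without 1 array. The HIF target median was -0.19 without a filter, -0.23 without set 3, and -0.77 to -0.16 without 1 array. The median of the enzymes ran from -0.27 to 0.07.

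Over all genes, the 706 higher and 410 lower became 437 higher without a filter, 344 and 164 with the knockdown arrays of a set averaged, 185 and 60 with the first and 285 and 121 with the second series alone. They became 225 lower without set 1, 174 and 53 without set 2 and 168 and 66 without set 3. Without 1 array they ran from 373 to 664 and from 169 to 396. Med12 fell by 1.08 without set 2, short of the threshold (adjusted p = 0.0715), and passed in the other alternatives.

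The numbers of the sets do not establish pairs, since the labels do not say whether they mark them. Deviations of same-numbered NS control and MED12 KD arrays correlated at 0.02 to 0.30, not all above 0.1. Those of differently numbered ones correlated at -0.22 to 0.12. Between the 2 knockdown series, same-numbered arrays correlated at 0.07 to 0.46 and differently numbered ones at -0.37 to 0.14. With the number as a block, 1137 genes were higher and 751 lower, and of the 26 genes 3 were lower (Ankrd37, Egln3 and Pgam1) and 1 higher (Slc2a1). The causes of these shifts were not tested. Dim genes such as Pfkp, Pfkfb3, Pdk2, Ldhb and Car12 are limited by signal over background.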
